A study of Mus musculus with 90 samples.

Results

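Amino acid catabolic enzymes of the liver are described here through 10 genes, *Tat*, *Hpd*, *Tdo2*, *Sds*, *Got1*, *Gpt2*, *Prodh*, *Aass*, *Hal* and *Gls2*. They were chosen by name as enzymes that start or carry out the breakdown of tyrosine, tryptophan, serine, alanine, aspartate, proline, lysine, histidine and glutamine, and they make up 10 of the 27654 genes in the deposited tables. This choice was made with earlier results of these data known, so their share of calls beside that of all genes is description alone. All 10 passed the filter on low counts in each of the 20 comparisons described here.

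The liver takes up amino acids that arrive from the gut and from muscle and removes their nitrogen, which enters the urea cycle, while the carbon skeletons feed gluconeogenesis or are oxidised. Several of the enzymes that begin these routes, tyrosine aminotransferase and tryptophan dioxygenase above all, are textbook targets of glucocorticoid hormones, which bind the glucocorticoid receptor (GR, encoded by *Nr3c1*). Glucocorticoids are secreted with a daily rhythm that peaks in mice around lights-off, which is zeitgeber time 12 (ZT12).

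Polyadenylated RNA of whole liver was sequenced in 90 libraries, each from 1 male C57BL/6J mouse on chow. In the diet experiment, WT mice were taken at ZT12 on caloric restriction (n = 3) or control diet (n = 3), and in the corticosterone experiment WT mice on night-restricted feeding were taken at ZT12 after repeated injections of corticosterone (CORT, n = 3) or of vehicle (n = 3). In the time series, WT and GR LKO mice were taken at ZT0, ZT4, ZT8, ZT12, ZT16 and ZT20 on caloric restriction (n = 3 per group) or on control diet (n = 3 or 4 per group). The study's methods describe a stepwise cut in calories over weeks, to a final 40%, for restricted mice, which were fed at ZT12. Its controls had unlimited chow and then, for the week before sampling, feeding at night alone, from ZT12 on. The titles of the 3 control libraries of the diet experiment carry the letters AL, whereas under treatment they are given as fed at night, and which of these applies was not determined. GR LKO mice carry a floxed *Nr3c1* and a Cre recombinase under the albumin promoter, a knockout that the study describes as hepatocyte-specific. Their WT controls in the time series carry the floxed gene without Cre, and the animals of the other experiments are labelled WT. The time series held 10057544 to 17089004 counts per library on control diet and 14235473 to 20788575 on caloric restriction, the diet experiment 36442195 to 39492146 and the corticosterone experiment 13739631 to 16077943. Levels are given as CPM (counts scaled to library size after TMM) within each of the 4 deposited tables. Levels of the 10 enzymes were not compared with one another. The diets of the time series were sequenced as separate library series, so a diet effect from them is given only as an alternative to that of the diet experiment. A gene was called when its adjusted p-value from edgeR's quasi-likelihood test, taken over all genes tested, was under 0.05. In bulk tissue, fewer cells of a type and less RNA per cell cannot be told apart.

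*Nr3c1* served as a check of the genotype labels. Its mean lay between 18.8 and 31.2 CPM in the 12 GR LKO groups and between 75.0 and 102 CPM in the 12 WT groups of the time series. No GR LKO library reached the level of any WT library of the same time and diet. Of all 90 libraries, 2 stood apart in RNA of another organ. The 5 markers of exocrine pancreas, of which *Amy2a5* was the most abundant, summed to 846 CPM in WT replicate 3 on caloric restriction at ZT12 and to 536 CPM in WT replicate 2 on control diet at ZT16, and to at most 4.20 CPM in the other 88 libraries. Calls of the 10 enzymes that rest on these 2 libraries are given with and without them, a setting chosen after seeing the data; the marker lists, the list of other catabolic genes and the likeness of genes are given with all libraries alone.

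The diet experiment asked how caloric restriction alters the liver at ZT12. Of the 10 enzymes 7 were higher and 1 lower on caloric restriction, against 23.5% of all 13062 genes tested that were higher and 23.6% that were lower. The median log2 fold change was 0.49 over the 10 enzymes and 0.00 over all genes tested.

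*Tat* (ENSMUSG00000001670, chr8:109990437-109999803, plus strand in GRCm38), tyrosine aminotransferase, which takes the amino group off tyrosine, measured 6614, 6092 and 8416 CPM on caloric restriction and 821, 781 and 1104 CPM on control diet. All 3 restricted livers lay far above all 3 controls, with the largest log2 fold change of the 10 enzymes (log2 fold change 2.96 ± 0.18 (SE), adjusted p = 0.000122). *Hpd* (ENSMUSG00000029445, chr5:123171807-123182727, minus strand), the dioxygenase that acts on the product of *Tat*, measured 2782, 2337 and 2351 CPM on caloric restriction and 1810, 1749 and 1732 CPM on control diet. Again the groups did not overlap, with the restricted livers higher (log2 fold change 0.50 ± 0.09 (SE), adjusted p = 0.00407). *Tdo2* (ENSMUSG00000028011, chr3:81957090-81976202, minus strand), which opens the ring of tryptophan, measured 1506, 1372 and 1217 CPM on caloric restriction and 977, 991 and 950 CPM on control diet. The 3 controls lay close together below every restricted liver (log2 fold change 0.49 ± 0.09 (SE), adjusted p = 0.00493).

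*Sds* (ENSMUSG00000029597, chr5:120476526-120483932, plus strand), serine dehydratase, which turns serine into pyruvate, measured 518, 442 and 446 CPM on caloric restriction and 292, 255 and 344 CPM on control diet. Its restricted livers were higher without overlap (log2 fold change 0.66 ± 0.13 (SE), adjusted p = 0.00501). *Got1* (ENSMUSG00000025190, chr19:43499752-43524605, minus strand), the cytosolic aspartate aminotransferase, measured 1087, 1332 and 1394 CPM on caloric restriction and 296, 380 and 457 CPM on control diet, and the lowest restricted liver lay well above the highest control (log2 fold change 1.75 ± 0.17 (SE), adjusted p = 0.000446). *Gpt2* (ENSMUSG00000031700, chr8:85492576-85527560, plus strand), the mitochondrial alanine aminotransferase, measured 537, 470 and 459 CPM on caloric restriction and 579, 645 and 583 CPM on control diet. It was the 1 enzyme lower on caloric restriction (log2 fold change -0.30 ± 0.09 (SE), adjusted p = 0.0286). Its call was lost without control replicate 1, 2 or 3 (adjusted p = 0.0552, 0.102 and 0.0516) and without restricted replicate 2 or 3 (adjusted p = 0.101 and 0.0919).

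*Aass* (ENSMUSG00000029695, chr6:23072173-23132986, minus strand), which begins the breakdown of lysine, measured 675, 625 and 680 CPM on caloric restriction and 293, 360 and 393 CPM on control diet. The restricted livers were higher without overlap (log2 fold change 0.92 ± 0.12 (SE), adjusted p = 0.00104). *Gls2* (ENSMUSG00000044005, chr10:128194457-128210004, plus strand), the liver glutaminase, measured 437, 455 and 527 CPM on caloric restriction and 343, 267 and 407 CPM on control diet. The groups were separate by a small margin (log2 fold change 0.48 ± 0.16 (SE), adjusted p = 0.0400), and the call was lost without control replicate 1 or 2 (adjusted p = 0.0983 and 0.0907) or restricted replicate 2 or 3 (adjusted p = 0.0767 and 0.107). *Prodh* (ENSMUSG00000003526, chr16:18060357-18090203, minus strand), proline dehydrogenase, measured 280, 233 and 217 CPM on caloric restriction and 207, 238 and 212 CPM on control diet, with overlap and no call (log2 fold change 0.15 ± 0.11 (SE), adjusted p = 0.299). *Hal* (ENSMUSG00000020017, chr10:93488768-93519304, plus strand), histidine ammonia-lyase, measured 530, 312 and 376 CPM on caloric restriction and 384, 307 and 333 CPM on control diet. Its groups overlapped too (log2 fold change 0.25 ± 0.19 (SE), adjusted p = 0.317). Taken instead from the WT livers of the time series at ZT12, where diet and library series cannot be told apart, the diet effect turned direction for *Sds* (log2 fold change -0.06, adjusted p = 0.782) and for *Gpt2* (0.39, adjusted p = 0.0335). It was also no longer called there for *Tdo2* (0.27, adjusted p = 0.115) and *Gls2* (0.32, adjusted p = 0.0607).

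**Figure D1:**
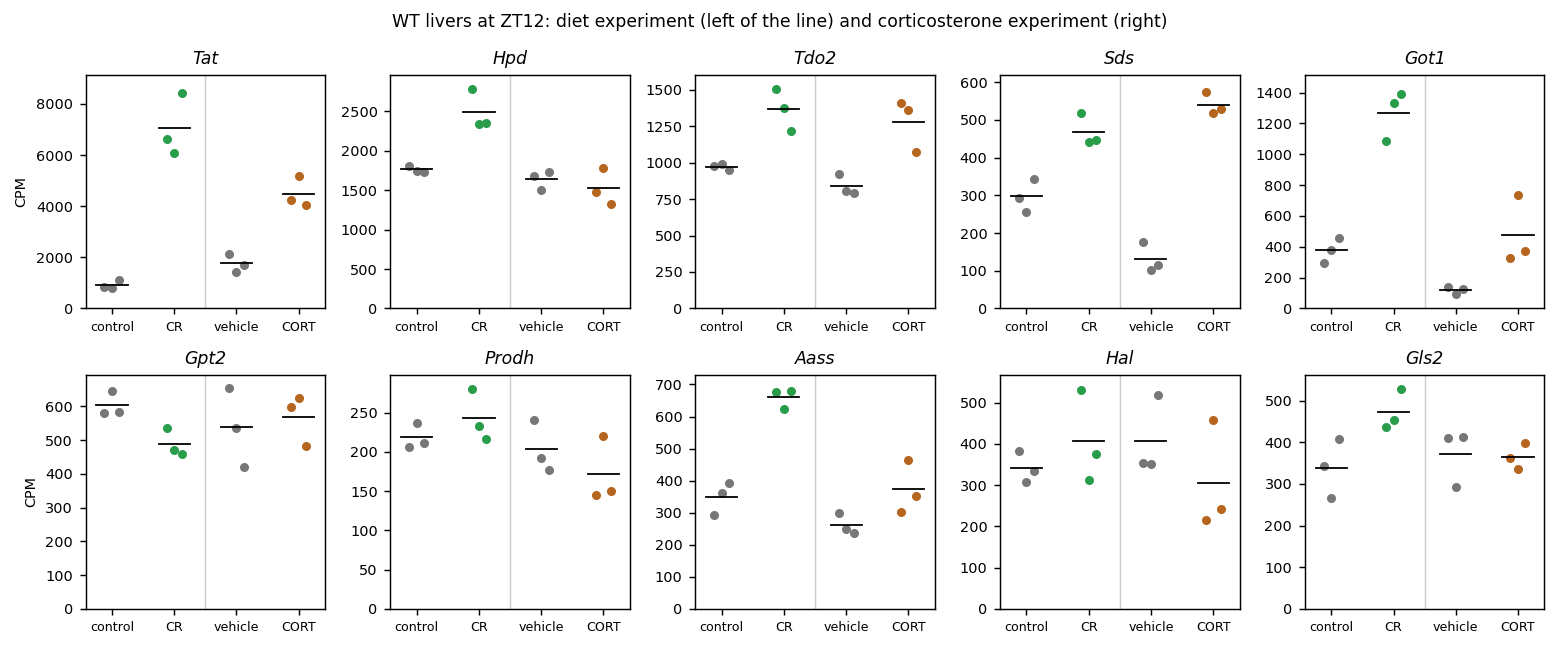
Level of the 10 enzymes in CPM (vertical axis, from 0) in WT livers at ZT12, with 1 point per liver and a bar at the mean of each group of 3. Restricted livers lie above all controls for *Tat*, *Hpd*, *Tdo2*, *Sds*, *Got1*, *Aass* and *Gls2*, and CORT livers above all vehicle livers for *Tat*, *Tdo2*, *Sds*, *Got1* and *Aass*.

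The corticosterone experiment gave the hormone to mice whose calories were not reduced. After CORT 4 of the 10 enzymes were higher and 0 lower, against 4.47% of 11523 genes tested that were higher and 3.64% that were lower. Over all genes 935 were called, and between 206 and 1008 with 1 library left out. At an unadjusted p under 0.05, 5 enzymes differed in edgeR, all of them higher, beside 2997 of all genes in either direction, and DESeq2 called 5 enzymes higher and 0 lower, beside 730 and 570 of 16582 genes. The median log2 fold change was 0.30 over the 10 enzymes and -0.01 over all genes tested.

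*Tat* measured 4248, 5171 and 4061 CPM after CORT and 2149, 1414 and 1715 CPM after vehicle. Every CORT liver was higher (log2 fold change 1.35 ± 0.18 (SE), adjusted p = 0.00774). *Tdo2* measured 1407, 1360 and 1070 CPM after CORT and 920, 809 and 789 CPM after vehicle. The groups were separate (log2 fold change 0.61 ± 0.13 (SE), adjusted p = 0.0371), but the call was lost without vehicle replicate 1, 2 or 3 (adjusted p = 0.0744, 0.141 and 0.115) and without CORT replicate 1 or 2 (adjusted p = 0.109 and 0.0597). *Sds* measured 573, 518 and 529 CPM after CORT and 176, 103 and 116 CPM after vehicle. It had the largest log2 fold change of the 10 enzymes here, with a wide gap between the groups (log2 fold change 2.04 ± 0.20 (SE), adjusted p = 0.00288).

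*Got1* measured 324, 736 and 372 CPM after CORT and 140, 93.9 and 129 CPM after vehicle. All CORT livers were higher, replicate 2 by far the most (log2 fold change 1.98 ± 0.33 (SE), adjusted p = 0.0161). The call was lost without vehicle replicate 1, 2 or 3 (adjusted p = 0.0511, 0.0758 and 0.0580) and kept without any 1 CORT library. *Aass* measured 301, 464 and 353 CPM after CORT and 298, 249 and 236 CPM after vehicle. Its groups did not overlap, yet it was not called by edgeR (log2 fold change 0.52 ± 0.17 (SE), adjusted p = 0.115), while DESeq2 gave an adjusted p of 0.0376 (0.0376 to 0.190 over the alternatives other than left-out libraries). The other 5 enzymes overlapped between the groups, with log2 fold changes from -0.42 for *Hal* to 0.08 for *Gpt2* and adjusted p-values from 0.439 to 0.940. *Hpd* was among them at -0.10. Whether CORT and caloric restriction differ in their effect on any enzyme was not tested, since the experiments have separate controls and tables.

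In the time series, GR LKO and WT livers were compared at each time point to see which enzymes change when GR is lost from hepatocytes. On caloric restriction at ZT12, 6 of the 10 enzymes were lower in GR LKO livers, against 7.84% of 11759 genes tested. None of the 10 was higher by edgeR, against 7.42% of genes tested, and DESeq2 gave 7 lower and 0 higher, beside 1039 and 1040 of 17217 genes. At an unadjusted p under 0.05, 7 enzymes differed in edgeR, all lower, beside 3642 of all genes in either direction. The median log2 fold change was -1.02 over the 10 enzymes and 0.00 over all genes tested.

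*Tat* measured 5717, 7371 and 6683 CPM in WT and 2388, 3309 and 3062 CPM in GR LKO livers. All GR LKO livers were lower, though still above their own levels at the other 5 time points (log2 fold change -1.17 ± 0.15 (SE), adjusted p = 0.00293). *Tdo2* measured 1624, 2170 and 2184 CPM in WT and 918, 894 and 973 CPM in GR LKO livers. The knockouts lay close together and below every WT liver (log2 fold change -1.10 ± 0.12 (SE), adjusted p = 0.00199). *Sds* measured 340, 431 and 536 CPM in WT and 175, 262 and 167 CPM in GR LKO livers. The groups were separate (log2 fold change -1.11 ± 0.22 (SE), adjusted p = 0.0168), with the highest WT value in replicate 3, the library that holds pancreas RNA. Without that library *Sds* was not called (log2 fold change -0.94, adjusted p = 0.0507), nor was it without GR LKO replicate 1 or 3 (adjusted p = 0.0587 and 0.0642).

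*Got1* measured 916, 1472 and 1473 CPM in WT and 402, 426 and 250 CPM in GR LKO livers. It had the largest difference of the 10 enzymes, with every GR LKO liver below every WT liver (log2 fold change -1.84 ± 0.25 (SE), adjusted p = 0.00445). *Gpt2* measured 810, 907 and 910 CPM in WT and 536, 751 and 517 CPM in GR LKO livers. The GR LKO livers were lower without overlap but just missed the call (log2 fold change -0.54 ± 0.15 (SE), adjusted p = 0.0534), which it passed without GR LKO replicate 2 (adjusted p = 0.00988), with DESeq2 (0.00312) and with all libraries of the diet in 1 fit (0.00633), where the alternatives ranged from 0.00312 to 0.139. *Aass* measured 726, 870 and 881 CPM in WT and 414, 448 and 353 CPM in GR LKO livers. All GR LKO livers were far lower (log2 fold change -1.03 ± 0.12 (SE), adjusted p = 0.00227).

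*Prodh* measured 354, 225 and 307 CPM in WT and 124, 189 and 129 CPM in GR LKO livers. The GR LKO livers were lower, replicate 2 by the smallest margin (log2 fold change -1.004 ± 0.22 (SE), adjusted p = 0.0234). Its call was lost without WT replicate 3, the library with pancreas RNA (log2 fold change -0.98, adjusted p = 0.0701), without WT replicate 1 (adjusted p = 0.0614) and without GR LKO replicate 1 or 3 (adjusted p = 0.0701 and 0.0815). Without the library with pancreas RNA, *Tat* (adjusted p = 0.0138), *Tdo2* (0.0102), *Got1* (0.0180) and *Aass* (0.0121) were still called. *Hpd*, *Hal* and *Gls2* overlapped between genotypes, with log2 fold changes of -0.18, 0.03 and -0.08 and adjusted p-values from 0.347 to 0.936.

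On control diet at ZT12, 3 of the 10 enzymes were lower in GR LKO livers, against 1.27% of 11428 genes tested. By edgeR 0 were higher, against 0.814% of genes tested, and DESeq2 gave 3 lower and 0 higher, beside 317 and 247 of 17227 genes. At an unadjusted p under 0.05, 7 enzymes differed in edgeR, all lower, beside 1444 of all genes in either direction. The median log2 fold change was -0.45 over the 10 enzymes and 0.00 over all genes tested.

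*Tat* ranged from 2062 to 2602 CPM in WT and from 868 to 1586 CPM in GR LKO livers. All GR LKO livers were lower (log2 fold change -0.84 ± 0.17 (SE), adjusted p = 0.0440). *Tdo2* ranged from 1507 to 1736 CPM in WT and from 968 to 1122 CPM in GR LKO livers, again without overlap (log2 fold change -0.63 ± 0.08 (SE), adjusted p = 0.00349). The call of *Tat* was lost without WT replicate 1, 2, 3 or 4 (adjusted p = 0.0995, 0.115, 0.0824 and 0.0826) and without GR LKO replicate 3 or 4 (adjusted p = 0.103 and 0.0786), and with replicates 1 to 3 alone (0.129), whereas *Tdo2* was called without any 1 library. *Sds* measured 465, 425, 400 and 509 CPM in WT and 204, 232, 170 and 196 CPM in GR LKO livers. The lowest WT liver lay well above the highest GR LKO liver (log2 fold change -1.16 ± 0.11 (SE), adjusted p = 0.00133), and the call held without any 1 library. *Got1* measured 303, 207, 192 and 506 CPM in WT and 166, 145, 199 and 163 CPM in GR LKO livers. WT replicate 4 stood high and the groups overlapped (log2 fold change -0.84 ± 0.29 (SE), adjusted p = 0.234). *Aass* measured 364, 317, 270 and 305 CPM in WT and 241, 244, 283 and 254 CPM in GR LKO livers. These overlapped as well (log2 fold change -0.29 ± 0.10 (SE), adjusted p = 0.235), though with all libraries of the diet in 1 fit *Aass* was called (adjusted p = 0.0390, 0.0390 to 0.468 over the alternatives). *Prodh*, *Gls2*, *Gpt2*, *Hal* and *Hpd* were not called either, with log2 fold changes from -0.60 for *Prodh* to -0.02 for *Hpd* and adjusted p-values from 0.255 to 0.972.

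**Figure D2:**
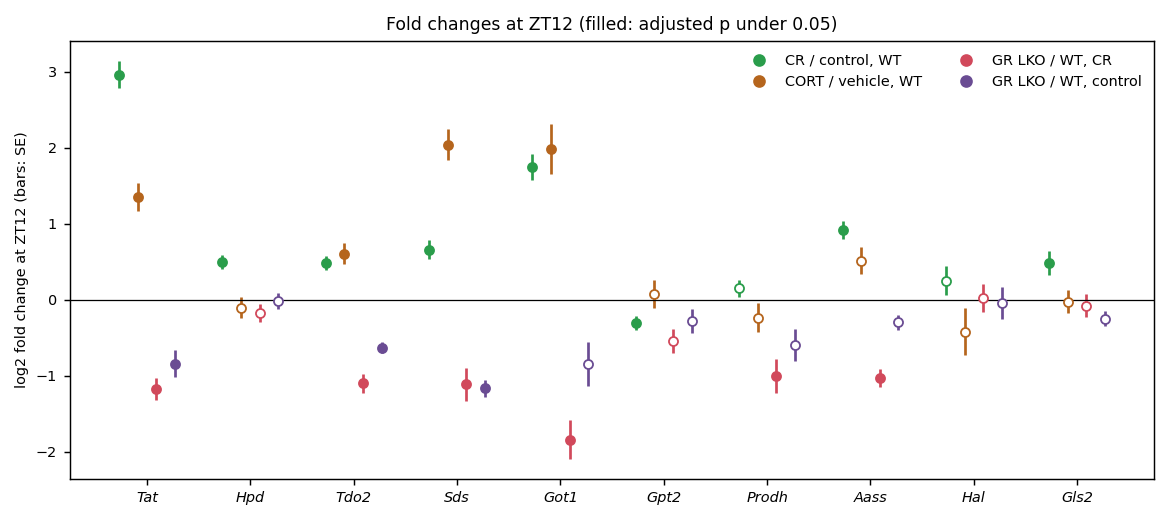
Log2 fold change of each enzyme at ZT12 (points; bars are SE) for caloric restriction over control diet, CORT over vehicle, and GR LKO over WT on each diet. Filled points were called. *Tat*, *Tdo2* and *Sds* were called in all 4 comparisons, higher in the first pair and lower in GR LKO livers on each diet, and *Hal* was called in 0 of them.

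Away from ZT12, edgeR called 0 to 2 enzymes per time point between genotypes. Over all genes, 1606 to 2340 had an unadjusted p under 0.05 at these times in restricted mice and 1152 to 1950 in controls, and DESeq2 called 434 to 916 and 195 to 634. On caloric restriction, edgeR called 0 lower at ZT0 (against 0.222% of genes tested) and 0 at ZT4 (0.299%), where 3 and 3 enzymes had an unadjusted p under 0.05 in either direction and DESeq2 called 2 and 1 (*Tdo2* and *Prodh* lower at ZT0, *Hal* higher at ZT4). *Prodh* was the 1 enzyme lower in GR LKO livers at ZT8 (1.38% of genes tested), where WT livers measured 306, 308 and 254 CPM and GR LKO livers 182, 156 and 191 CPM. These did not overlap (log2 fold change -0.71 ± 0.11 (SE), adjusted p = 0.0252). At this time 3 enzymes had an unadjusted p under 0.05 in either direction, and DESeq2 called 2, adding *Hal* as higher. The call was lost without WT replicate 1 (adjusted p = 0.0623) and without GR LKO replicate 1, 2 or 3 (adjusted p = 0.102, 0.0874 and 0.0834). At ZT16, 2 enzymes were lower (2.02% of genes tested), and 6 had an unadjusted p under 0.05 in either direction. Of these 6, *Hal* (log2 fold change 0.29) and *Gpt2* (0.24) were higher in GR LKO livers. DESeq2 called 4 lower, adding *Got1* (-0.78) and *Tat* (-0.57). *Tdo2* measured 995, 814 and 930 CPM in WT and 517, 466 and 640 CPM in GR LKO livers (log2 fold change -0.74 ± 0.14 (SE), adjusted p = 0.0245). Its groups were separate, but the call was lost without WT replicate 1 or 3 (adjusted p = 0.0961 and 0.0785) or GR LKO replicate 1 or 2 (adjusted p = 0.0819 and 0.0751). *Prodh* measured 233, 210 and 169 CPM in WT and 117, 120 and 135 CPM in GR LKO livers. Its WT livers were all higher (log2 fold change -0.71 ± 0.13 (SE), adjusted p = 0.0266), and it was called again without WT replicate 3 but not without WT replicate 1 or 2 (adjusted p = 0.0874 and 0.0807) or GR LKO replicate 1, 2 or 3 (adjusted p = 0.0897, 0.0908 and 0.0617).

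At ZT20 on caloric restriction 2 enzymes were lower in GR LKO livers, against 0.662% of genes tested, with 3 at an unadjusted p under 0.05 and 3 lower by DESeq2, which added *Tdo2* (-0.57). *Prodh* measured 183, 198 and 219 CPM in WT and 138, 137 and 130 CPM in GR LKO livers, with no overlap (log2 fold change -0.55 ± 0.09 (SE), adjusted p = 0.0358). *Sds* measured 125, 105 and 131 CPM in WT and 77.2, 75.8 and 85.9 CPM in GR LKO livers. The GR LKO livers were lower without overlap (log2 fold change -0.58 ± 0.10 (SE), adjusted p = 0.0494). *Prodh* was not called without WT replicate 1, 2 or 3 (adjusted p = 0.0962, 0.125 and 0.137) or GR LKO replicate 1, 2 or 3 (0.0609, 0.0881 and 0.0743). *Sds* was not called without WT replicate 1, 2 or 3 (adjusted p = 0.202, 0.0715 and 0.175) or GR LKO replicate 1, 2 or 3 (0.0841, 0.125 and 0.0647), nor with RLE scaling (0.0514) or all libraries of the diet in 1 fit (0.130). In the opposite sense, *Tdo2* at ZT0 was called lower without GR LKO replicate 1 (log2 fold change -0.93, adjusted p = 0.0251). *Prodh*, like *Tat*, *Tdo2* and *Sds*, had a negative log2 fold change in GR LKO livers at all 6 time points on caloric restriction. For *Prodh* these were -0.54 (ZT0), -0.40 (ZT4), -0.71 (ZT8), -1.004 (ZT12), -0.71 (ZT16) and -0.55 (ZT20). Of these differences, those at ZT0 and ZT4 were not called (adjusted p = 0.0783 and 0.355). On control diet *Tdo2* alone of the enzymes just named had a negative log2 fold change at all 6 time points. There *Prodh* (0.36) and *Tat* (0.12) were positive at ZT0 without a call, as was *Sds* at ZT4 (0.12) and ZT20 (0.28).

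**Figure D3:**
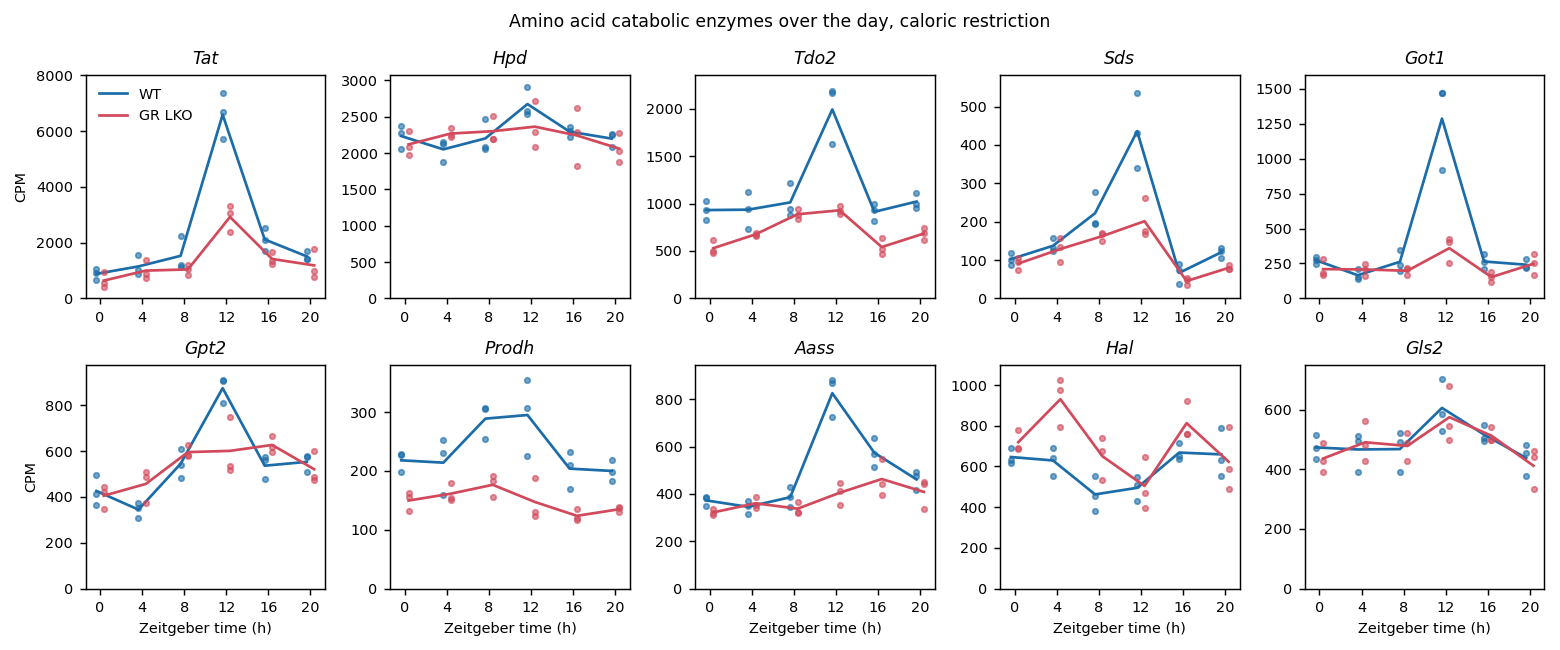
Level of the 10 enzymes in CPM (vertical axis, from 0) over zeitgeber time in WT and GR LKO livers on caloric restriction, with 1 point per liver (n = 3 per group) and a line through the group means. At ZT12 WT livers stand above GR LKO livers for *Tat*, *Tdo2*, *Sds*, *Got1*, *Gpt2*, *Prodh* and *Aass*.

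On control diet, edgeR called 0 enzymes lower at ZT0 (0.0936% of genes tested), 0 at ZT4 (0.0508%) and 0 at ZT20 (0.193%), where 2, 2 and 1 had an unadjusted p under 0.05 in either direction and DESeq2 called 2, 2 and 0, which were *Tdo2* lower and *Gpt2* higher at ZT0 (-0.53 and 0.69) and at ZT4 (-0.39 and 0.46). Over all genes, 1798 of 11749, 1152 of 11817 and 1346 of 11906 had an unadjusted p under 0.05 at these times, and DESeq2 called 407, 195 and 297. At ZT8, 2 were lower, against 0.596% of genes tested, with 6 at an unadjusted p under 0.05 and 3 lower by DESeq2, which added *Gls2* (-0.27). *Tat* measured 829, 722, 804 and 920 CPM in WT and 610, 534, 629 and 620 CPM in GR LKO livers (log2 fold change -0.45 ± 0.08 (SE), adjusted p = 0.0274). The groups did not overlap. The call was lost without WT replicate 1 or 3 (adjusted p = 0.0914 and 0.0758) or GR LKO replicate 1, 2, 3 or 4 (adjusted p = 0.0789, 0.0680, 0.0581 and 0.0654), with all libraries of the diet in 1 fit (0.553) and with replicates 1 to 3 alone (0.0780). *Prodh* measured 198, 181, 173 and 195 CPM in WT and 145, 155, 123 and 122 CPM in GR LKO livers (log2 fold change -0.46 ± 0.09 (SE), adjusted p = 0.0368). Here too the groups were separate. The call was lost without WT replicate 1, 2, 3 or 4 (adjusted p = 0.121, 0.0850, 0.0710 and 0.0816) or GR LKO replicate 1, 3 or 4 (adjusted p = 0.0747, 0.0887 and 0.0944), in 1 fit of the diet (0.525) and with replicates 1 to 3 alone (0.161). *Gls2* at this time was called lower without GR LKO replicate 2 (log2 fold change -0.33, adjusted p = 0.0455).

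At ZT16 on control diet 1 enzyme was lower in GR LKO livers, against 0.947% of genes tested, with 4 at an unadjusted p under 0.05 and 3 lower by DESeq2, which added *Got1* (-0.47) and *Prodh* (-0.50). *Aass* measured 343, 327, 347 and 306 CPM in WT and 259, 251 and 251 CPM in GR LKO livers (log2 fold change -0.38 ± 0.07 (SE), adjusted p = 0.0359). Its groups did not overlap. It was not called without WT replicate 2, the library with pancreas RNA (log2 fold change -0.39, adjusted p = 0.0882). Nor was it without WT replicate 1, 3 or 4 (adjusted p = 0.0761, 0.0652 and 0.0522) or GR LKO replicate 1, 2 or 3 (adjusted p = 0.0830, 0.106 and 0.0986).

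**Figure D4:**
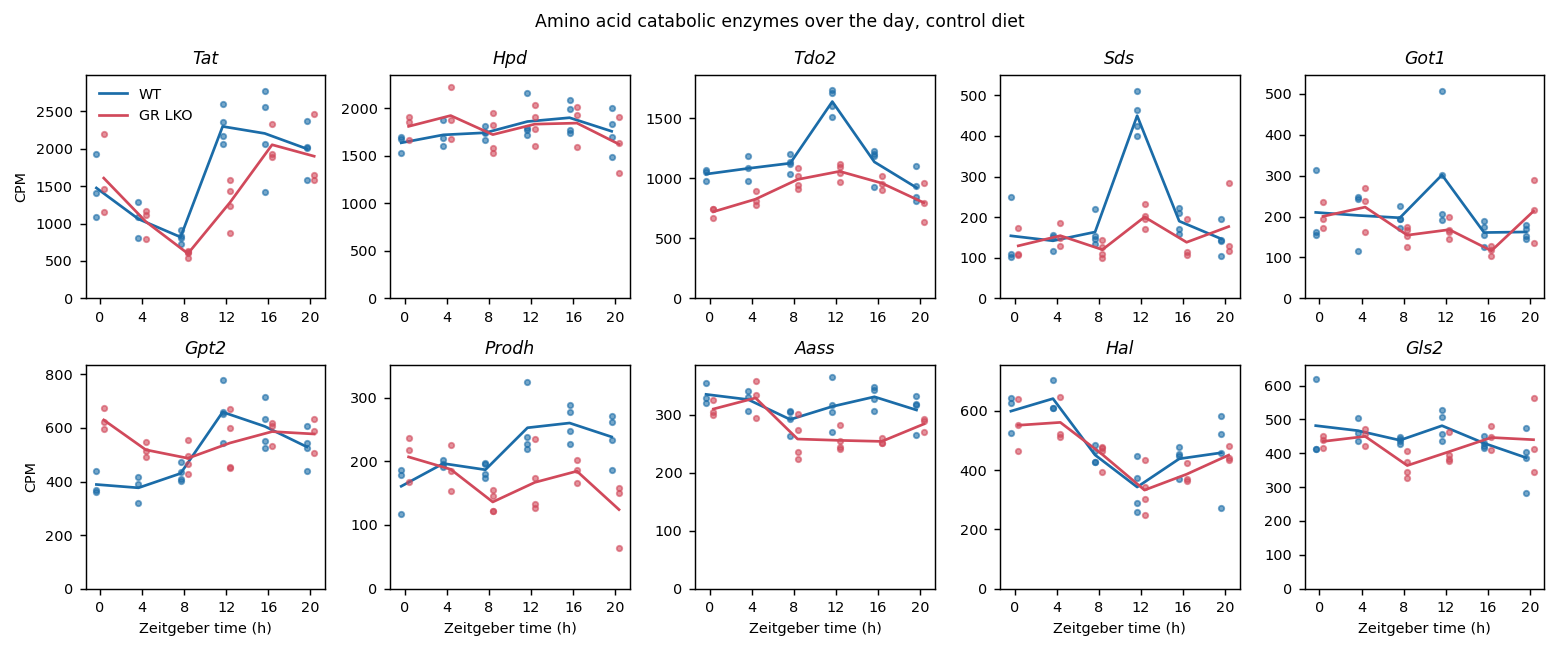
Level of the 10 enzymes in CPM (vertical axis, from 0) over zeitgeber time in WT and GR LKO livers on control diet, with 1 point per liver (n = 3 or 4 per group) and a line through the group means. *Sds* and *Tdo2* at ZT12 stand higher in every WT liver than in every GR LKO liver.

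Whether the effect of genotype differs between the diets was tested as an interaction at each time point. By edgeR 0 of the 10 enzymes were called at ZT0, ZT4, ZT8, ZT12, ZT16 and ZT20, against 0%, 0%, 0.081%, 1.01%, 0.234% and 0% of genes tested. At an unadjusted p under 0.05 there were 2, 1, 1, 3, 2 and 0 enzymes, beside 1266, 746, 1043, 1742, 1306 and 878 of between 12225 and 12599 genes tested. DESeq2 called 2, 1, 0, 2, 0 and 0 enzymes, beside 168, 37, 126, 473, 186 and 48 genes. Those at ZT12 were *Aass* (-0.72, DESeq2 adjusted p = 0.000993) and *Tdo2* (-0.46, 0.0333). *Gpt2* (-0.77) and *Prodh* (-0.90) were called at ZT0, and *Hal* (0.76) at ZT4. At ZT12 *Tat*, *Tdo2*, *Got1* and *Aass* all had a more negative log2 fold change in GR LKO livers on caloric restriction than on control diet. By edgeR the difference of the 2 log2 fold changes was -0.72 for *Aass* (adjusted p = 0.0557). It was -0.46 for *Tdo2* (adjusted p = 0.156), -0.98 for *Got1* (0.325) and -0.32 for *Tat* (0.616). For *Sds* it was 0.06 (0.945). *Aass* passed the threshold without WT replicate 1 on caloric restriction (adjusted p = 0.0464) or WT replicate 1 on control diet (0.0429), and *Tdo2* passed it without WT replicate 1 on caloric restriction (0.0399). Without the library with pancreas RNA 0 were called. So the larger count of enzymes called on caloric restriction at ZT12 was not shown by edgeR to be a difference between diets. DESeq2 called a difference for *Aass* and *Tdo2* alone.

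Daily rhythms were tested with JTK_CYCLE at a period of 24 h. In WT livers on caloric restriction *Tat* ran from a lowest mean of 878 CPM at ZT0 to a highest of 6590 CPM at ZT12, *Sds* from a lowest mean of 66.5 CPM at ZT16 to a highest of 436 CPM at ZT12, and *Got1* from a lowest mean of 166 CPM at ZT4 to a highest of 1287 CPM at ZT12. Of the 10 enzymes 3 were called rhythmic in that group, against 37.1% of 12624 genes, while limma with a cosine and sine of time called 8, and 6886 genes in all. These 3 were *Tat* (adjusted p = 0.00277), *Aass* (0.00492) and *Gpt2* (0.0479). Not called were *Got1* (0.559), *Tdo2* (0.652), *Sds* (0.139), *Prodh* (0.0922), *Gls2* (0.113) and *Hpd* (0.406), whose highest WT means all lay at ZT12. Nor was *Hal* (0.113). Without the library with pancreas RNA, *Gpt2* was no longer called and *Tat* and *Aass* were (adjusted p = 0.00902 and 0.00495). In GR LKO livers on caloric restriction 3 were called, against 31.6% of genes, and 7 by limma, which called 6429 genes in all. The 3 were *Tat* (0.0156), *Gpt2* (0.0255) and *Sds* (0.0412). With 1 replicate number left out at every time point, no more than 1 enzyme was called in WT and 0 in GR LKO livers on this diet. All genes together then fell from 4678 to between 634 and 1256 in WT, and from 4028 to between 563 and 1143 in GR LKO livers.

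On control diet *Tat* ran from a lowest mean of 819 CPM at ZT8 to a highest of 2297 CPM at ZT12 in WT livers, and *Gpt2* from a lowest mean of 376 CPM at ZT4 to a highest of 659 CPM at ZT12. There 6 enzymes were called rhythmic, against 44.7% of 12481 genes. These were *Gpt2* (adjusted p = 0.00130), *Hal* (0.00268), *Tat* (0.00426), *Tdo2* (0.00426), *Sds* (0.00658) and *Prodh* (0.0182). Each of them was called without the library with pancreas RNA, with adjusted p-values from 0.00197 for *Gpt2* to 0.0196 for *Prodh*. In GR LKO livers on control diet 4 were called, against 38.5% of genes. These were *Tdo2* (0.000717), *Tat* (0.000975), *Hal* (0.00461) and *Aass* (0.0275). With 1 replicate number left out, 3 or 4 enzymes were called in WT livers and 2 to 4 in GR LKO livers on this diet, *Tat* and *Tdo2* in all 4 such fits of GR LKO livers. All genes together then fell from 5573 to between 3154 and 4012 in WT, and from 4804 to between 1595 and 3917 in GR LKO livers. JTK_CYCLE called *Hpd*, *Got1* and *Gls2* in none of the 4 groups.

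A rhythm called in one group and not in another is no difference between them, so the difference was tested with limma on the cosine and sine of time. Between genotypes on caloric restriction limma called 0 enzymes, against 0.659% of genes tested. *Aass* alone of the enzymes had an unadjusted p under 0.05 (0.00593), beside 1575 of 13041 genes tested. Limma-voom also called 0 enzymes. Between genotypes on control diet 1 was called, against 0.366%, and 7 had an unadjusted p under 0.05, beside 1261 of 12834 genes tested. It was *Gpt2*, whose means ran from a lowest mean of 376 CPM at ZT4 to a highest of 659 CPM at ZT12 in WT and from a lowest mean of 487 CPM at ZT8 to a highest of 630 CPM at ZT0 in GR LKO livers. Its fitted amplitude was 0.424 in WT and 0.156 in GR LKO livers in VST units (adjusted p = 0.0124), and 0.0167 without the library with pancreas RNA. With 1 replicate number left out at every time point it was called in 2 of 4 fits, lost without number 1 or 2 (adjusted p up to 0.394). Between the diets in WT livers 4 were called, against 26.6% of genes tested. *Aass* had a fitted amplitude of 0.0495 on control diet and 0.539 on caloric restriction (adjusted p = 0.000102). *Tat* had 0.715 and 1.15, with its fitted peak at 16.9 h on control diet and 12.9 h on caloric restriction (adjusted p = 0.00254). The fitted peak of *Prodh* lay at 15.1 h on control diet and 9.46 h on caloric restriction (adjusted p = 0.0142), and that of *Hal* at 1.55 h and 21.3 h (adjusted p = 0.0446). Without the 2 libraries with pancreas RNA these 4 were still called, *Hal* at an adjusted p of 0.0442 (0.0430 to 0.0694 over the alternatives). With 1 replicate number left out, *Aass* was called in 4 of 4 fits, *Tat* in 3, *Prodh* in 2 and *Hal* in 1. A shift in level between the library series drops out of this test, but other differences between them do not.

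Counts of cell type markers at ZT12 are given beside the shares of all genes stated above for each comparison, which several of them do not exceed, and the part of these markers in the results was not tested. On caloric restriction 4 of 5 periportal hepatocyte markers (*Ass1* the most abundant) were higher and 1 lower than on control diet, summing to 8515 to 9559 CPM against 4715 to 5692 CPM. In the same comparison 3 of 6 hepatocyte markers (*Alb*) were higher and 1 lower (161960 to 171630 CPM against 96318 to 101980 CPM), 4 of 5 endothelial markers (*Clec4g*) were higher, and 1 of 6 pericentral markers was higher and 2 lower. In GR LKO livers on caloric restriction 3 of 6 hepatocyte markers were lower, summing to 123630 to 142230 CPM against 170800 to 176240 CPM in WT. Beside them 3 of 5 periportal and 3 of 6 pericentral markers (*Cyp2e1*) were lower and 3 of 6 Kupffer cell markers (*Clec4f*) were higher, with 1 endothelial and 1 erythrocyte marker higher and 1 cholangiocyte marker lower. On control diet 2 of 6 hepatocyte and 1 of 5 periportal markers were lower in GR LKO livers. After CORT, 1 of 6 hepatocyte and 1 of 6 pericentral markers were higher, and 1 pericentral, 1 endothelial, 1 stellate cell and 1 cholangiocyte marker were lower. Of 4 neutrophil markers 1 was tested after CORT, where it was not called, and 0 were tested in the other 3 comparisons. Among lists tested without a call, sums were separate after CORT for neutrophils (1.56 to 2.27 CPM against 0.0717 to 0.622 CPM after vehicle) and erythrocytes (299 to 561 CPM against 632 to 788 CPM). In the diet experiment 2 of 4 cholangiocyte markers tested and 1 of 1 adipocyte marker were higher, 1 of 5 stellate cell markers was higher and 2 lower, and 1 of 2 lymphocyte and 1 of 5 erythrocyte markers were lower. Exocrine pancreas markers passed the filter in 0 of the 4 comparisons, their high sum in 1 WT library on caloric restriction included, and *Amy2a5* was at 0 CPM in every GR LKO liver at ZT12.

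Other genes of amino acid catabolism came from a list of 55 genes. Of 54 tested in the diet experiment 5 were higher and 12 lower on caloric restriction, with a median log2 fold change of -0.15, beside the 23.5% and 23.6% of all genes tested given above. *Acmsd*, which diverts an intermediate of tryptophan breakdown away from NAD synthesis, was higher (log2 fold change 2.19 ± 0.23 (SE), adjusted p = 0.000561), as was *Gldc* of the glycine cleavage system (log2 fold change 1.81 ± 0.11 (SE), adjusted p = 0.000100). *Sdsl*, a relative of *Sds*, was higher too (log2 fold change 1.22 ± 0.20 (SE), adjusted p = 0.00253). Lower were *Agxt*, alanine-glyoxylate aminotransferase (log2 fold change -0.84 ± 0.12 (SE), adjusted p = 0.00185), *Bckdk*, the kinase that inhibits branched-chain ketoacid dehydrogenase (log2 fold change -0.76 ± 0.11 (SE), adjusted p = 0.00149), and *Aadat*, an aminotransferase of the lysine and tryptophan routes (log2 fold change -0.73 ± 0.12 (SE), adjusted p = 0.00330). After CORT, 0 of 53 were higher by edgeR, against 4.47% of all genes tested, and 1 was lower, against 3.64%. That was *Shmt1* (log2 fold change -0.52 ± 0.12 (SE), adjusted p = 0.0414), with 17 at an unadjusted p under 0.05 in either direction and 0 higher and 6 lower by DESeq2.

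In GR LKO livers on caloric restriction at ZT12, 2 of 54 were higher, against 7.42% of all genes tested, and 6 lower, against 7.84%. The median log2 fold change of the 54 was 0.02. These counts include WT replicate 3, the library with pancreas RNA, and are not given without it. *Aldh4a1*, which follows *Prodh* in proline breakdown, was higher (log2 fold change 0.57 ± 0.12 (SE), adjusted p = 0.0197), as was *Shmt1* (log2 fold change 0.38 ± 0.10 (SE), adjusted p = 0.0448), and *Gldc* (log2 fold change -1.50 ± 0.19 (SE), adjusted p = 0.00309) and *Acmsd* (log2 fold change -1.50 ± 0.15 (SE), adjusted p = 0.00119) were lower. On control diet 3 of 54 were lower in GR LKO livers, against 1.27% of all genes tested, among them *Gldc* (log2 fold change -1.02 ± 0.19 (SE), adjusted p = 0.0275) and *Aadat* (log2 fold change -0.57 ± 0.11 (SE), adjusted p = 0.0298).

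Likeness over the 24 group means of the time series, centred within each diet, was described by Pearson's r against 9919 other genes, with no test. The genes most like *Tat* were *Klf3* (r = 0.942) and *Dusp1* (r = 0.911), and those most like *Aass* were *Smcr8* (r = 0.927) and *Dhx8* (r = 0.921). For *Sds* they were *Lurap1l* (r = 0.921) and *N4bp2l1* (r = 0.909), and for *Tdo2* *Cisd2* (r = 0.912) and *Pptc7* (r = 0.898). *Got1* was most like *Ell2* (r = 0.889) and *Tmem131* (r = 0.881), *Prodh* *Gpld1* (r = 0.879) and *Apoc3* (r = 0.864) and *Hal* *Cd55* (r = 0.869) and *Plekhg1* (r = 0.866). The closest for *Hpd* were *Gpt* (r = 0.837) and *Ppt2* (r = 0.804), for *Gpt2* *Slc25a51* (r = 0.820) and *Cyp3a13* (r = 0.815) and for *Gls2* *Brd2* (r = 0.795) and *Uroc1* (r = 0.751). Among the enzymes themselves the closest pair was *Tdo2* and *Sds* (r = 0.790). Group means share their libraries' time, genotype and table.

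Promoter sequence is shown for *Tat*, *Tdo2*, *Got1* and *Aass*, which were lower together in GR LKO livers on caloric restriction at ZT12 with or without any 1 library. RefSeq (GRCm38.p6) gave a promoter for 8 of the 10 enzymes, and *Sds* and *Gls2* had none in the table. The RefSeq starts can differ from the gene bounds given above, and the window of *Tdo2* lies inside those bounds. The 250 bases before each RefSeq start are printed 5′ to 3′ on the gene's strand, at chr8:109990186-109990435, plus strand for *Tat*, chr3:81975729-81975978, minus strand for *Tdo2*, chr19:43524606-43524855, minus strand for *Got1* and chr6:23132987-23133236, minus strand for *Aass*, with capitals for CCAAT or TTGCNNAA on either strand.
Tat: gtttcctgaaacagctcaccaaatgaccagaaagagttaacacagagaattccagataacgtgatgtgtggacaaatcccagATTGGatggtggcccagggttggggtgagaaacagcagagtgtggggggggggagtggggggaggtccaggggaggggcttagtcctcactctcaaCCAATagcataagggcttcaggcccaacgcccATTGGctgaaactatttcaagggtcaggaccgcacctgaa
Tdo2: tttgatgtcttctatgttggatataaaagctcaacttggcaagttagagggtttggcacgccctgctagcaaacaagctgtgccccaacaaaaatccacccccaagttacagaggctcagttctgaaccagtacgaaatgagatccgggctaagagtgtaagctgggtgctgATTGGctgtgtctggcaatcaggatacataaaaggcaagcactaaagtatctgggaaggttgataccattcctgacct
Got1: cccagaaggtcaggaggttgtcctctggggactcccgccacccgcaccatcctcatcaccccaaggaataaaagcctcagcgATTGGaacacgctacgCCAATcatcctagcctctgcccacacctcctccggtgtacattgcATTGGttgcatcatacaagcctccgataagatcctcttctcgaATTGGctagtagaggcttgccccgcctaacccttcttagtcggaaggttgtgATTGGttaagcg
Aass: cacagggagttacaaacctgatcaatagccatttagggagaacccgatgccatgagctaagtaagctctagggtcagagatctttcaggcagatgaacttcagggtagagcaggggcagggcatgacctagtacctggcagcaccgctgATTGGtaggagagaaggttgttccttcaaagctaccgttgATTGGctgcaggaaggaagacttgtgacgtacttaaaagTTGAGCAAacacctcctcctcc
CCAAT was found 3 times in *Tat*, 1 time in *Tdo2*, 5 times in *Got1*, 2 times in *Aass* and 1 time in *Hal*, and 33.8% of 32851 promoters of this length hold it. TTGCNNAA was found in *Aass* and *Hal*, against 9.56% of promoters. The letters AGAACA (in 16.1% of promoters), GTAAACA (3.17%), CACGTG (6.02%), TTATGNAA (3.07%) and TGACGTCA (1.55%) were not in the windows of these 8 enzymes on either strand.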

How the data were processed

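Whole mouse liver was profiled by bulk RNA-seq in 90 libraries. The authors checked reads with FastQC and MultiQC and quantified them with Salmon on build mm10, and the values they deposited are estimated counts without normalization; versions are not in the labels. The 6 columns of a deposited table of VST values were not used. Of 27654 genes, 27244 had a symbol. Estimated counts were rounded and read in R 4.3.3. Each comparison of 2 groups was fitted on its own libraries with edgeR 4.0.16 (quasi-likelihood, TMM, filterByExpr at a minimum count of 10, Benjamini-Hochberg adjustment over all genes tested, called under 0.05). Rhythms were tested with JTK_CYCLE (own R code with the exact null) on VST values (DESeq2 1.42.0), and rhythm differences with limma 3.58.1. Fits were tested on simulated data. DESeq2, another scaling, no filter, a replicate block and leaving out each library were alternatives. SE is the log2 fold change divided by the root of F. No 2 libraries of a group were alike within sampling noise (lowest chi-square per degree of freedom 10.4 over 102 pairs). Members and lists were chosen with earlier results of these data known. Named genes were the 10 enzymes, *Nr3c1*, the 3 list genes with the highest and the 3 with the lowest log2 fold change in each ZT12 comparison among those called with at least 5 CPM and no overlap, the 2 genes most like each enzyme, and the most abundant marker of a list; 1 list gene that met this rule is not reported here.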

Additional observations from a re-analysis of the deposited data

Results flagged for a closer look

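In groups of 4 livers, 1 liver far from the other 3 was looked for in 60 sets of values (6 groups, 10 enzymes), and chance gives about 1 in 20. Of these sets 2 met the limit. *Tdo2* measured 927 CPM in WT replicate 3 on control diet at ZT16, where the other livers had 1187 to 1229 CPM. *Hal* measured 393 CPM in GR LKO replicate 4 on control diet at ZT8, where the other livers had 466 to 478 CPM. Between genotypes on control diet the rhythm of *Gpt2* differed (limma adjusted p = 0.0124). Between the diets in WT livers the rhythms of *Aass* (0.000102), *Tat* (0.00254), *Prodh* (0.0142) and *Hal* (0.0446) differed by the same test.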

How the results depend on the processing

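The diet effect of *Sds* (-0.0614, adjusted p = 0.782) and *Gpt2* (0.39, 0.0335) turned direction when taken from the time series, where 5 enzymes were called instead of 8. The share of all genes called in that fit is not given here, so the fall in enzymes called cannot be set against it. A replicate block left 2 of 4 enzymes called after CORT (534 genes instead of 935), 6 of 11 calls over 6 times between genotypes on caloric restriction (1425 genes instead of 2966) and 3 of 6 on control diet (182 instead of 772). Replicate numbers did not pair libraries (44 pairs, r from -0.12 to 0.11), so the block is given here alone. With the block *Gpt2* (diet, adjusted p = 0.0503), *Tdo2* and *Got1* (CORT, 0.0598 and 0.0601), *Prodh* (caloric restriction ZT8, ZT12, ZT16 and ZT20, 0.0925, 0.0820, 0.0974 and 0.0941), *Sds* (caloric restriction ZT20, 0.0675), *Prodh* (control diet ZT8, 0.0986), *Tat* (control diet ZT12, 0.0851) and *Aass* (control diet ZT16, 0.139) lost their calls. DESeq2 gave 19 calls between genotypes on caloric restriction (5255 genes instead of 2966), 13 on control diet (2466 instead of 772) and 5 in the interaction (1038 instead of 162, and 14 with the block). All libraries of a diet in 1 fit gave 6208 and 2107 genes, and the enzymes called in these fits are not counted here. Replicates 1 to 3 on control diet gave 2 calls (459 genes). A limma cosine test called 8 enzymes in WT and 7 in GR LKO livers on caloric restriction instead of 3 and 3. Leaving out 1 library gave 6 to 8 calls for diet (4512 to 6471 genes instead of 6155) and 2 to 4 for CORT (206 to 1008 instead of 935). Leaving out 1 replicate of 1 group at every time point at once gave 5 to 8 calls for genotype on caloric restriction, 2 to 5 on control diet and 0 to 2 in the interaction. All genes called were then 1394 to 1923 instead of 2966, 318 to 638 instead of 772 and 83 to 179 instead of 162. Leaving out a replicate number gave 0 to 1 and 0 rhythmic enzymes in WT and GR LKO livers on caloric restriction, 3 to 4 and 2 to 4 on control diet, and for rhythm differences 0 (genotype, caloric restriction), 0 to 1 (genotype, control diet) and 1 to 4 (diet). Over all genes these rhythm differences then numbered 0 to 2 instead of 86, 3 to 24 instead of 47 and 1152 to 2938 instead of 3454. Without the libraries with pancreas RNA, chosen after seeing the data, counts were 9 and 5 for genotype on the 2 diets, 0 for the interaction, 2 and 6 for WT rhythms, and 0, 1 and 4 for rhythm differences, with 36 instead of 86 genes in the first of these. The number of all genes called is not given here for the other counts without these libraries, so they cannot be set against it. Groups held 3 or 4 livers, so single libraries carry many calls. Diet and library series coincide in the time series, and whole liver RNA does not separate cell types. RNA levels were measured, and neither protein nor enzyme activity was analysed here.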
